A study of Rattus norvegicus with 22 samples.

Results

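The miRNAs described here are the endothelial miR-126 and a group of miRNAs known from vessel wall and connective tissue, miR-10, miR-199 and miR-214, in the rat hippocampus. They were chosen by name alone, as every name of the miR-126, miR-10, miR-199 and miR-214 families, whatever the letter or arm. The rule found 6 of 468 distinct names, namely rno-miR-126a-3p (miR-126a-3p below), miR-126a-5p, miR-10a-5p, miR-10b-5p, miR-199a-3p and miR-199a-5p. miR-126b and miR-214 were not analysed here.

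The libraries came from 14-week-old male rats of the Long Evans strain, an outbred laboratory stock with pigmented coats. The 11 CPF rats had been given chlorpyrifos (CPF), an organophosphate insecticide that inhibits acetylcholinesterase, at 10 mg/kg body weight by daily injection under the skin for 21 days. The 11 control rats had been given peanut oil, the vehicle, in the same way for 21 days. Per the labels' protocols RNA was taken from the CA1 region, and some rats of the study, not identified by library, had been through fear conditioning. Whole CA1 tissue mixes neurons, glia and vessels, so fewer cells of a type and less RNA per cell cannot be told apart. The labels give no animal identifiers, so a p-value speaks of the spread among libraries, part of which may be technical.

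A miRNA is a short RNA cut from a hairpin precursor. Either arm of the hairpin, named 5p or 3p, can be loaded into the silencing complex, where the seed (bases 2 to 8) pairs with target transcripts. miR-126 is the classical miRNA of endothelial cells. It is encoded within Egfl7, a gene for an endothelial secreted factor, and is known to sustain vascular growth factor signalling by repressing Spred1, an inhibitor of that pathway. miR-10a and miR-10b are encoded in Hox gene clusters and follow Hox expression along the body axis, so they are known for high levels in hindbrain and spinal cord rather than forebrain. miR-199a and miR-214 are made from a shared transcript antisense to Dnm3 and are known from mesenchymal cells and fibroblasts.

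The mature sequences, from RefSeq on the build GRCr8, are given because the arms and the 2 miR-10 names are compared below. Capitals mark the seed.
miR-126a-3p: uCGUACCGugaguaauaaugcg
miR-126a-5p: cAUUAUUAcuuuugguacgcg
miR-10a-5p: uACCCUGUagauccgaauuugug
miR-10b-5p: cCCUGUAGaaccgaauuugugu
miR-199a-3p: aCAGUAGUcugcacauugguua
miR-199a-5p: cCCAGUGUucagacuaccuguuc
All 6 names were matched in the RefSeq table, which held 410 of the 468 names. The 6 carry 6 different seeds, and no other mature miRNA in that table had any of them.

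On GRCr8, miR-126a-5p lies at chr3:29813182-29813202 and miR-126a-3p at chr3:29813219-29813240, both on the plus strand within the bounds of Egfl7. RefSeq names the gene that carries them Mir126b, and gives the symbol Mir126a to an overlapping gene on the minus strand whose product is miR-126b. Over 17 bases shared by miR-126a-5p and miR-126b, all 17 are complementary, so strand is needed to tell their reads apart, and whether the authors counted by strand is not known. miR-199a-5p at chr13:77116255-77116277 and miR-199a-3p at chr13:77116294-77116315 lie within the bounds of Dnm3. The reads were placed by the authors on another build, rn4, and no value here was looked up by coordinate.

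The miR-10 hairpins show how closely the pair is related. Capitals mark the annotated 5p arm.
miR-10a hairpin, chr10:81779709-81779818, plus strand: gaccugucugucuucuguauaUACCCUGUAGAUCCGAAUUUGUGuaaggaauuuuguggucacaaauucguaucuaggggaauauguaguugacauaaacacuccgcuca
miR-10b hairpin, chr3:80035859-80035967, plus strand: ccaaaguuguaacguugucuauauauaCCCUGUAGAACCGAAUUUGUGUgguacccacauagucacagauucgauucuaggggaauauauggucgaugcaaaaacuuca
The annotated miR-10b-5p starts 2 bases later in the shared stretch than miR-10a-5p does. Over the 21 bases compared the arms have 1 difference, U12A, counted from 1 at the 5′ end of miR-10a-5p. The bases just before the annotated miR-10b-5p are UA, and a miR-10b-5p that began where miR-10a-5p begins would have the miR-10a seed. The treatment of mismatched reads is not given in the sources used here, so the split of reads between the miR-10 names is uncertain.

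Levels were deposited as reads per 1000000 (RPM) of the reads assigned to miRNAs. Low values rise in even steps, which gave the number of reads behind each value. In 19 of 22 libraries some names had less than 1 read, but all 132 values of the 6 names were whole reads within 0.01 read. Libraries held 47844 to 94980 such reads (74134 ± 12857 in CPF and 70880 ± 6709 in control libraries, SD, n = 11 each), so that 1 read was worth 10.5 to 20.9 RPM. A level of 3 reads, taken as the floor, was 31.6 to 62.7 RPM. Since no molecular identifiers were used, several reads can stem from one molecule, and this floor and every interval on a share of reads cover counting error only, not the spread between libraries. Neuronal miRNAs, among them the neural identity miRNA miR-9a-5p and miR-128, took 5.72 to 8.02% of RPM in CPF and 5.55 to 8.04% in control libraries. The red blood cell miRNAs took at most 0.00795% in CPF and 0.00659% in control libraries. The muscle list was led by miR-143-3p, at 267800 ± 26210 RPM in CPF and 259700 ± 17530 RPM in control libraries (SD, n = 11 each), far above miR-126a-3p. The smooth muscle miRNA next to it in the genome, miR-145-5p, was at 201 ± 55.7 RPM in CPF and 188 ± 67.8 RPM in control libraries. How fully each sequence was captured in a library was not measured, so levels of different names are compared as reads, not molecules.

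None of the 4 names that met the filter passed the test between CPF and control libraries. They were miR-126a-3p, miR-126a-5p, miR-10a-5p and miR-199a-3p. The test was limma on log2(RPM + 1) across all 273 names that reached 10 RPM in 11 or more libraries. It was two-sided, with p-values adjusted by Benjamini-Hochberg and called under 0.05. It called 2 of the 273 names, which is 0.733%, both higher in CPF libraries (miR-132-3p and miR-212-5p, the activity-induced neuronal pair). At that share a count of 0 of 4 is no result about these miRNAs. With 1 read worth 10.5 to 20.9 RPM, the filter asked for no more than 1 read in a library. Some of the 273 names averaged under 1 read, and whether names with so few reads could be called was not tested. Among the 179 names with a mean of at least 50 RPM, 2 were called higher in CPF libraries. No name was called lower (0.0% of 273), and 18 names had an unadjusted p under 0.05, none of them among the 4. edgeR on recovered reads called 3 of 264 names, and DESeq2 called 5, again with none of the 4. The median log2 fold change was 0.04 over the 4 names and 0.02 over all 273.

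miR-126a-3p, the guide arm usually measured as miR-126, was the most abundant of the 6. By mean RPM over all libraries it ranked 43 among the 468 names. It ran from 1349 RPM (CPF replicate 4) over a median of 1651 to 1860 RPM (replicate 6) in CPF libraries, and from 1258 RPM (control replicate 11) over a median of 1588 to 1901 RPM (replicate 1) in control libraries. The CPF libraries lay wholly inside the range of the controls, with 6 of 11 above the control median. The means were 1600 ± 180.7 RPM in CPF and 1575 ± 186 RPM in control libraries (SD, n = 11 each). The log2 fold change was 0.02 (SE 0.0788, limma adjusted p = 0.972). Its 95% confidence interval, in folds, was 0.91 to 1.14, so a rise of more than 1.14-fold or a fall below 0.91-fold lay outside it.

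miR-126a-5p, the partner arm, which in mice has endothelial targets of its own such as Dlk1, was less abundant. It ran from 264 RPM (CPF replicate 4) over a median of 436 to 510.4 RPM (replicate 2) in CPF libraries. In control libraries it ran from 281 RPM (control replicate 6) over a median of 398 to 509 RPM (replicate 5). The groups overlapped almost fully, with 1 CPF library above the highest control and 1 below the lowest. The log2 fold change was 0.05 (SE 0.132, 95% CI -0.22 to 0.32, limma adjusted p = 0.972).

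**Figure D1:**
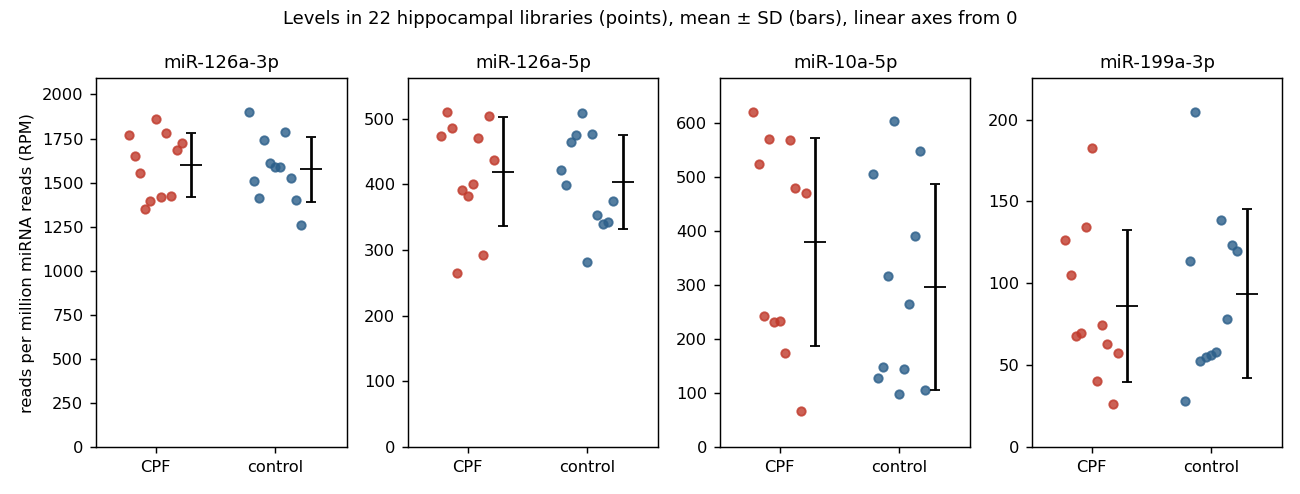
RPM (linear axes from 0) of miR-126a-3p, miR-126a-5p, miR-10a-5p and miR-199a-3p in each of 11 CPF and 11 control libraries (points), with mean ± SD (bars). The 2 groups overlap in every panel, and miR-10a-5p spreads from 66.3 to 621 RPM while miR-126a-3p stays between 1258 and 1901 RPM.

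The arms of miR-126a were compared as shares of their summed reads, as a description. The 5p arm held 20.7 ± 2.70% of the miR-126a reads of a library in CPF and 20.4 ± 3.19% in control libraries (SD, n = 11 each). Summed over libraries this was 347 of 1658 reads in CPF (20.9%, exact 95% CI 19.0 to 23.0%) and 313 of 1547 in control libraries (20.2%, 18.3 to 22.3%). At the median, miR-126a-3p had 3.73 times the reads of miR-126a-5p in CPF and 3.79 times in control libraries. The most extreme libraries were both controls. The 5p share was 15.0% in control replicate 6 (20 reads of the 5p arm and 113 of the 3p arm, exact 95% CI 9.43 to 22.3%) and 24.8% in control replicate 3 (25 of 101 reads, 16.7 to 34.3%).

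**Figure D2:**
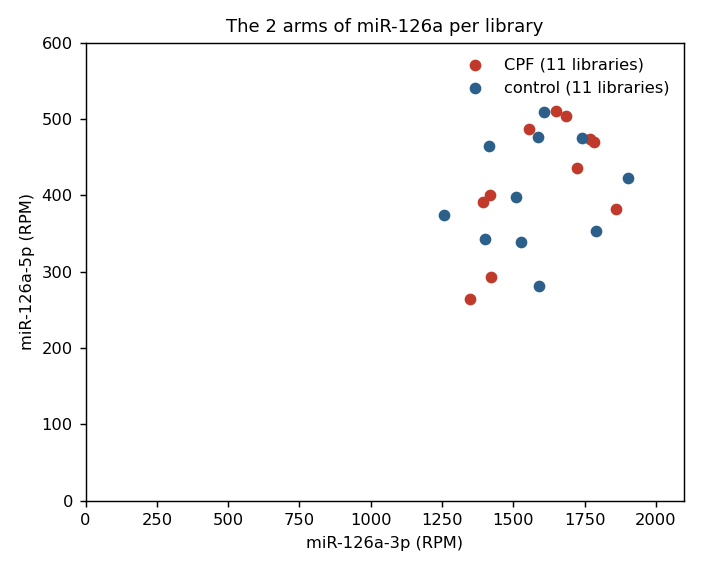
miR-126a-5p against miR-126a-3p in RPM (linear axes from 0), 1 point per library, 11 CPF and 11 control libraries. Both groups occupy the same area, with miR-126a-3p between 1258 and 1901 RPM and miR-126a-5p between 264 and 510.4 RPM.

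Both arms come from the same precursor, and their reads followed each other only loosely across libraries. Over 22 libraries Pearson's r between log2(RPM + 1) of miR-126a-3p and miR-126a-5p was 0.42 (permutation p = 0.0546, adjusted p = 0.327 over the 6 pairs of tested names), and Spearman's rho was 0.38 (permutation p = 0.0849, adjusted p = 0.509). Without the 2 libraries farthest from the median of miR-126a-3p, r was 0.44. Within groups rho was 0.36 in CPF and 0.24 in control libraries (n = 11 each). Among 272 other tested names miR-126a-5p ranked 11 by rho with miR-126a-3p. Neither arm varied much more than counting itself. That leaves little shared variation to measure, so r and rho cannot tell how closely the levels of the arms were linked. Within groups the variance of the reads was 1.50 times that expected from counting alone for miR-126a-3p and 0.997 times for miR-126a-5p, against a median of 2.02 over the 151 names with a mean of at least 100 RPM. The other 5 pairs had r between -0.22 and 0.24 (permutation p = 0.288 to 0.951, adjusted p = 0.666 to 0.951) and rho between -0.27 and 0.23 (permutation p = 0.221 to 0.836, adjusted p = 0.584 to 0.836). Within groups the value farthest from 0 was that of miR-126a-3p and miR-199a-3p, with rho 0.26 in CPF and -0.62 in control libraries (n = 11 each, not tested), against -0.19 over all 22.

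miR-10a-5p had the widest spread between libraries of the same group among the 4 tested names. It ran from 66.3 RPM (5 reads, CPF replicate 10) over a median of 471 to 621 RPM (59 reads, replicate 1) in CPF libraries. In control libraries it ran from 98.5 RPM (7 reads, control replicate 6) over a median of 265 to 605 RPM (44 reads, replicate 5). The highest and lowest library differed 9.37-fold, against 7.72-fold for miR-199a-3p at its few reads, 1.93-fold for miR-126a-5p and 1.51-fold for miR-126a-3p. Both the highest and the lowest value were in the CPF group, which reached past the controls at either end by 1 library.

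The means of miR-10a-5p were 380.5 ± 193 RPM in CPF and 296 ± 190.5 RPM in control libraries (SD, n = 11 each). The log2 fold change of 0.41 had a wide error (SE 0.370, 95% CI -0.35 to 1.17, limma adjusted p = 0.869), and 6 of 11 CPF libraries were above the control median. The interval, 0.79- to 2.25-fold, includes changes in either direction. The difference between the groups was smaller than the spread between replicates.

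The spread of miR-10a-5p was larger than counting gives. Within groups the variance of its reads was 7.94 times the counting variance. Its SD within groups was 0.99 on the log2 scale and ranked 6 among the 151 names with a mean of at least 100 RPM, where the median SD was 0.33. The 5 names above it were miR-448-3p, miR-1298, miR-3553, miR-153-3p and miR-1843-3p (named after their values were seen), of which miR-448 and miR-1298 are miRNAs of the choroid plexus. The highest value stood in the deepest library, CPF replicate 1 with 94980 reads. The shallowest, CPF replicate 9 with 47844 reads, had 481 RPM, and CPF replicate 10 with 75455 reads had the lowest value. The part of depth in these values was not tested. CPF replicates 7, 8 and 9, which are left out together in a fit below, had 174, 569 and 481 RPM of miR-10a-5p. These values span most of the range. Among CPF libraries, replicate 9 was the highest for miR-1298. Whether the tissue taken from each rat played a part was not tested.

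**Figure D3:**
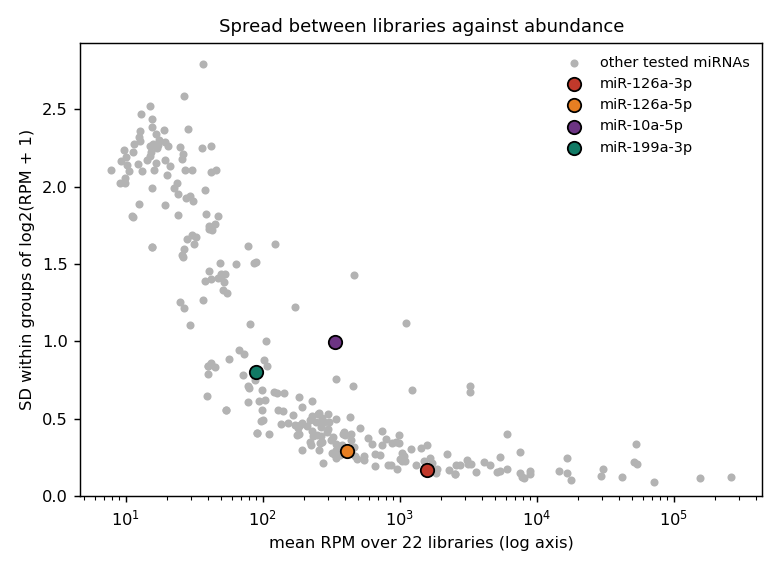
SD within groups of log2(RPM + 1) against mean RPM over 22 libraries (log axis), 1 point for each of 273 tested miRNAs. miR-10a-5p, at an SD of 0.99, lies above most names of like abundance, while miR-126a-3p (0.17), miR-126a-5p (0.29) and miR-199a-3p (0.80) lie within the cloud.

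miR-10b-5p, by contrast, had almost no reads assigned to its name. No CPF library held a read of it, and control replicates 3, 8 and 9 held 1 read each. Summed over the group, 0 of 815470 CPF reads allows up to 3.68 RPM, and 3 of 779680 control reads is 3.85 RPM. Of the reads under both miR-10 names, miR-10b-5p had 0 of 314 in CPF (exact 95% CI 0.0 to 1.17%) and 3 of 239 in control libraries (1.26%, exact 95% CI 0.26 to 3.62%). As said above, the split of reads between the miR-10 names is uncertain, and these intervals do not cover that. miR-10b-5p did not pass the filter. In limma without the filter, over 454 names, its adjusted p was 0.877, and both groups were under the floor, so no fold is given. The only other Hox cluster name in the list, miR-196b-5p (named after its values were seen), was at 0 in all libraries that list it. The miR-99 and miR-100 names, which are close to miR-10 in sequence and lie outside the Hox clusters, were far more abundant. miR-99a-5p was at 8060 ± 687 RPM in CPF and 8230 ± 579 RPM in control libraries (SD, n = 11 each), and miR-99b-5p at 4978 ± 226.5 and 5235 ± 783 RPM.

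miR-199a-3p was near the limit of detection. It ran from 26.5 RPM (2 reads, CPF replicate 10) over a median of 69.5 to 183 RPM (11 reads, replicate 6) in CPF libraries. In control libraries it ran from 28.2 RPM (2 reads, control replicate 1) over a median of 78.3 to 205 RPM (11 reads, replicate 3). The groups overlapped, with 4 of 11 CPF libraries above the control median. The means were 86.1 ± 46.3 RPM in CPF and 93.5 ± 51.7 RPM in control libraries (SD, n = 11 each), with a log2 fold change of -0.11 (SE 0.342, 95% CI -0.81 to 0.59, limma adjusted p = 0.972). The interval spans 0.57- to 1.51-fold and so includes changes in either direction. Within groups the variance of its reads was 1.82 times the counting variance.

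The partner arm, miR-199a-5p, had no read in any CPF library and 1 read in each of control replicates 4, 8, 9 and 10. The 5p arm thus held 0 of 70 miR-199a reads in CPF (exact 95% CI 0.0 to 5.13%) and 4 of 75 in control libraries (5.33%, exact 95% CI 1.47 to 13.1%). miR-199a-5p did not pass the filter. In limma without the filter its unadjusted p was 0.0211 and its adjusted p 0.65 over 454 names. Both groups stood under the floor of 3 reads per library, so no fold is given. The 5p arm of miR-126a, for comparison, held 20.9% in CPF and 20.2% in control libraries. The difference in 5p share between these precursors was not tested.

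The libraries carry code numbers whose first digit is 3 or 6 in CPF and 1 or 4 in control, with no meaning given for it in the labels. miR-199a-3p was at 114 ± 43.6 RPM in CPF libraries with digit 3 (n = 6) and 52.2 ± 18.9 RPM in those with digit 6 (n = 5), and at 90.9 ± 71.0 RPM with digit 1 (n = 5) and 95.7 ± 36.0 RPM with digit 4 (n = 6) in control libraries. Its log2 fold change was 0.57 for digit 3 against 1 and -0.86 for digit 6 against 4 (limma adjusted p = 0.978 and 0.632). The difference between these, 1.43 (95% CI 0.12 to 2.74), had an unadjusted p of 0.0338 and a limma adjusted p of 0.865 over 273 names. All these values rest on 2 to 12 reads of miR-199a-3p per library. The matching of digits across groups was a choice made here. For miR-126a-3p, miR-126a-5p and miR-10a-5p this difference was -0.11, -0.36 and -0.01 (limma adjusted p = 0.923, 0.865 and 0.996).

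**Figure D4:**
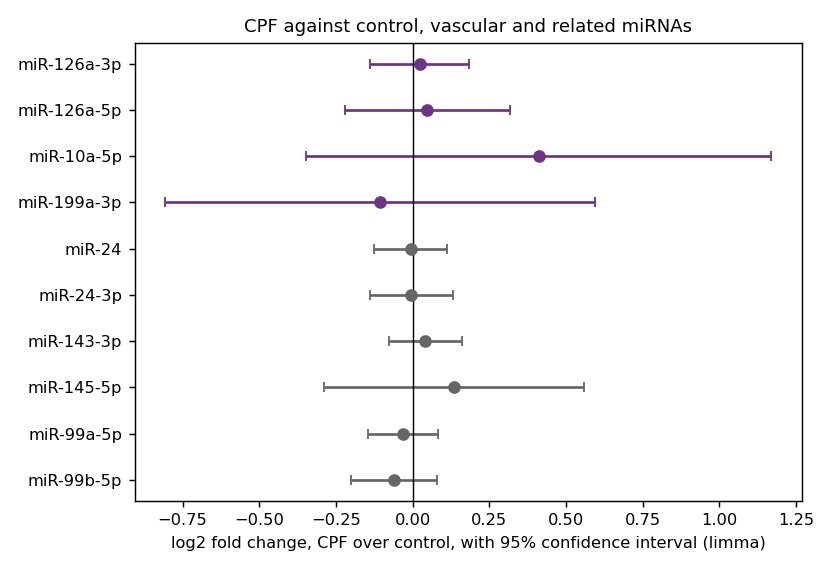
Log2 fold change of CPF over control with its 95% confidence interval (limma) for the 4 tested names (purple) and for the leading names of 3 related lists (grey). Every interval shown includes 0, and the widest are those of miR-10a-5p (-0.35 to 1.17) and miR-199a-3p (-0.81 to 0.59).

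The other vascular lists, and the miR-99 and miR-100 list, are given against the 2 of 273 names called (0.733%) and the 18 of 273 with an unadjusted p under 0.05. Counts of 0 called among so few names are therefore no result about these lists. Of 17 tested names linked to endothelial cells, 0 were called and 1 had an unadjusted p under 0.05. Their median log2 fold change was -0.05. The 2 most abundant were miR-24, at 7733 ± 595 RPM in CPF and 7783 ± 763 RPM in control libraries, and miR-24-3p, a near-identical entry under a separate name, at 7556 ± 739 and 7594 ± 963 RPM (SD, n = 11 each). Of 3 tested muscle and smooth muscle names, 0 were called and 1 had an unadjusted p under 0.05, with a median log2 fold change of 0.04. miR-143-3p had a log2 fold change of 0.04 and miR-145-5p of 0.14 (limma adjusted p = 0.954 each). Of 3 tested names of the miR-99 and miR-100 list, 0 were called and 0 had an unadjusted p under 0.05, with a median log2 fold change of -0.06.

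Lists for blood, neuronal and oligodendrocyte miRNAs were measured in the same libraries. They too stand against 2 of 273 names called (0.733%) and 18 of 273 with an unadjusted p under 0.05. Counts of 0 called among so few names are no result about these lists either. Of 3 tested leukocyte names, led by miR-142-5p (47.8 ± 19.4 RPM in CPF and 52.04 ± 29.99 RPM in control libraries) and miR-150-5p (29.5 ± 19.9 and 32.0 ± 23.6 RPM), 0 were called and 0 had an unadjusted p under 0.05. The single tested red blood cell name, miR-144-5p, averaged less than the floor in both groups (14.8 ± 17.7 and 16.5 ± 8.05 RPM) and was not called. Of 18 tested neuronal names 0 were called and 1 had an unadjusted p under 0.05, with miR-9a-5p at 50850 ± 7160 RPM in CPF and 52430 ± 7700 RPM in control libraries and miR-128 at 7558 ± 1626 and 7674 ± 1352 RPM. Of 4 tested oligodendrocyte names, led by miR-338-3p (50330 ± 13800 and 55890 ± 11910 RPM) and miR-338-5p (2101 ± 453 and 2313 ± 350 RPM), 0 were called and 0 had an unadjusted p under 0.05 (SD, n = 11 each throughout).

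The choroid plexus and ependyma list had the largest share of names with a low unadjusted p of the lists examined. Of its 7 tested names 0 were called, against 2 of 273 (0.733%), and 4 had an unadjusted p under 0.05, against 18 of 273. All 7 had a log2 fold change above 0, with a median of 1.61 against 0.02 over all 273. Among the 7, miR-34b-3p, miR-34b-5p and miR-34c-3p (named after their values were seen) averaged 0.81, 0.73 and 1.18 reads per library. That is under the floor of 3 reads. miR-1298 was at 795 ± 1243 RPM in CPF and 132.7 ± 77.6 RPM in control libraries (SD, n = 11 each), or 3.05-fold (unadjusted p = 0.00487, limma adjusted p = 0.266). miR-34c-5p was at 579 ± 471 and 332.5 ± 104.7 RPM, or 1.49-fold (limma adjusted p = 0.677). The list took 0.0635 to 0.801% of RPM in CPF and 0.058 to 0.11% in control libraries. Its part in the values of the 6 names was not tested. In the fit without CPF replicates 7, 8 and 9, none of the 4 tested names passed (limma adjusted p = 0.979 to 0.998). Log2 fold changes were 0.04 for miR-126a-3p, 0.09 for miR-126a-5p, 0.34 for miR-10a-5p and 0.04 for miR-199a-3p. For miR-1298, 5 CPF libraries lay above the highest control, so those left out cannot be all of the high ones. All of those left out have code digit 6, so the fit also changes the mix of digits.

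The names whose levels followed miR-126a-3p most closely over the 22 libraries were not those of the vascular lists. Among 269 other tested names, the highest Spearman's rho of log2(RPM + 1) belonged to miR-384-5p (rho 0.60, Pearson's r 0.63), let-7b-3p (0.58 and 0.41), miR-350 (0.53 and 0.53), miR-504 (0.51 and 0.55) and miR-29a-3p (0.46 and 0.42). miR-384-5p followed it within both groups, with rho 0.65 in CPF and 0.66 in control libraries (n = 11 each). miR-504 did so less evenly, with 0.21 in CPF and 0.73 in control libraries. For miR-10a-5p the closest names were miR-495 (rho 0.57, r 0.59), miR-184 (0.47 and 0.29) and miR-423-5p (0.44 and 0.63). For miR-199a-3p they were miR-181b-5p (rho 0.58, r 0.52), miR-7a-1-3p (0.55 and 0.55) and miR-369-3p (0.51 and 0.44, over 21 libraries). These names were picked as the highest of 269, so their correlations are a description and carry no p. Among them miR-184, miR-423-5p and miR-369-3p averaged 3.0, 1.455 and 0.90 reads per library. That is at or under the floor of 3 reads, so their ranks rest on few reads. All values of a library share its depth and its total.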

How the data were processed

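Small RNA libraries (TruSeq small RNA kit, HiScanSQ) were analysed as 11 CPF and 11 control libraries, grouped by title. The authors deposited 1 RPM value per miRNA name, per the file headers. Per the submitters' processing notes, the build was rn4 and the software included Partek 6.6, Bowtie, cutadapt 1.2 and CASAVA 1.8.2. Which annotation served, and how strand or reads with several matches were handled, is not given in the sources used here. RPM of 13 names on more than 1 row were summed, none of them described here. The file of control replicate 2 lacks 36 names, treated as missing. Within 0.02 RPM, 91.7 to 97.5% of a library's low values were whole reads, and 13 of 22 files met a stricter check of whole steps. Recovered reads were rounded for the count tests. Every pair of libraries differed by more than sampling noise (chi-square over degrees of freedom at least 1.82).

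limma 3.58.1 (trend, R 4.3.3) was fitted to log2(RPM + 1). The design provided this test for RPM. Alternatives were pseudocounts 0.5 and 14, other filters, median-ratio scaling, edgeR 4.0.16 and DESeq2 1.42.0 on recovered reads, a replicate block, code digits and leaving out libraries. The test of the difference between digits was added after the data were seen. Scripts were tested on simulated data. Correlations used permutation tests (two-sided, scipy 1.17.1). The miRNAs and lists were chosen with earlier results of these data known. Named miRNAs are all members, the 2 most abundant tested names of each list and any called, and the names of highest rho (5 for miR-126a-3p, 3 for miR-10a-5p and miR-199a-3p). Others are marked as named after their values were seen.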

Additional observations from a re-analysis of the deposited data

How the results depend on the processing

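None of the 4 tested names passed the threshold in any of the 36 alternatives, 22 of which left out a single library. Log2 fold changes ran over -0.0076 to 0.0519 for miR-126a-3p, -0.0012 to 0.112 for miR-126a-5p, 0.2825 to 0.6364 for miR-10a-5p and -0.256 to 0.0408 for miR-199a-3p when each library was left out. The sign turned for miR-126a-3p without control replicate 11 (-0.0076), for miR-126a-5p without control replicate 6 (-0.0012) and for miR-199a-3p without CPF replicate 10 (0.0408) or control replicate 3 (0.0258). It also turned in these settings, where the cause was not tested. For code digit 3 against 1 it was -0.0358 (miR-126a-3p), -0.1458 (miR-126a-5p) and 0.5714 (miR-199a-3p). For 6 against 1 it was -0.025 (miR-126a-3p), -0.1277 (miR-126a-5p) and -0.062 (miR-10a-5p). miR-199a-3p was at 0.2565 for 3 against 4 and at 0.0407 without CPF replicates 7, 8 and 9. Of all names, DESeq2 called 5 higher in CPF, against 2 in the main fit. Digit 3 against 1 called 1, 6 against 4 called 1 and 3 against 4 called 0. Each digit contrast compared fewer libraries, within a fit of all 22. Leaving out single libraries gave 2 to 3. With the replicate block 2 names were called and miR-126a-3p stayed at 0.0239. The labels do not say that numbers pair rats, same-numbered libraries deviated with correlations of -0.087 to 0.193, and 1 of 11 CPF libraries correlated best with its own number. Few reads limit miR-199a-3p (2 to 12 reads per library), and miR-10b-5p and miR-199a-5p, at 0 or 1 read, were tested only without the filter, where neither passed.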
